A study of Mus musculus with 12 samples.

Results

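The 10 genes of the NRF2 antioxidant response followed here in mouse liver were Nfe2l2, which encodes NRF2 itself, and 9 of its classic targets, Nqo1, Hmox1, Gclc, Gclm, Gpx2, Srxn1, Txnrd1, Gsr and Slc7a11. They were listed by name, and all 10 were found among the 31870 gene symbols on the array. NRF2 is a transcription factor that the adaptor protein KEAP1 normally holds in the cytoplasm and marks for degradation. Oxidants and electrophiles release it, and in the nucleus it pairs with small MAF proteins on antioxidant response elements, which the repressor BACH1 can also occupy. In the liver this programme is known for making glutathione, detoxifying quinones and reactive metabolites, and breaking down haem, and it is often studied in cholestasis, where retained bile acids injure cells.

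The RNA came from whole liver of 12 mice, 1 per one-colour Agilent array, in 4 groups of 3. FSAP-/- mice lack factor VII-activating protease, a circulating serine protease encoded by Habp2, and were compared with FSAP+/+ (WT) littermates; both came from heterozygous crosses after backcrossing towards BalbC up to generation 3. At 20 to 30 weeks of age each genotype had either bile duct ligation (BDL), in which the common bile duct is tied off so that bile backs up and the liver scars, or a sham operation, and livers were frozen 2 weeks later. The deletion is constitutive, and the labels give neither the deleted part of Habp2 nor the sex of the animals.

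Between 54.5% and 62.3% of the non-control spots of an array were well above background, and no spot was saturated. A level below is the log2 of the background-subtracted signal minus that array's 75th percentile, so 0 is the 75th percentile, which lay at 475 to 1202 intensity units. Habp2 lay between 4.97 and 5.50 on the 6 WT arrays and was not well above background on 5 of the 6 FSAP-/- arrays. On the other, sham FSAP-/- replicate 1, it read -3.45 and was above background; that array was scanned apart from the rest and its values were deposited with fewer digits. Signal from the Y-linked Ddx3y and Eif2s3y was seen on 3 arrays, all FSAP-/- (sham replicate 1, BDL replicates 1 and 2), and Xist signal on the other 9. Sex by this measure was thus balanced neither over genotype nor over surgery within FSAP-/- mice. Arrays lay on 4 slides, and no slide held both genotypes after the same surgery. Slide 2 held BDL WT replicates 2 and 3 with sham FSAP-/- replicate 2, so a comparison of genotype with the slide as a block rests on that slide together with the BDL differences of the others. BDL and sham of 1 genotype shared a slide only for BDL WT replicate 1 with the 3 sham WT arrays and for sham FSAP-/- replicate 3 with the 3 BDL FSAP-/- arrays. Hepatocyte markers were at 6.46 to 7.73 on every array as a mean over 8 genes, and all 8 were above background on all arrays.

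Antioxidant response elements were looked for in RefSeq start-site windows (GRCm38.p6, 250 bases before to 50 after the start), because NRF2 acts through such sites. The cores searched were TGACNNNGC and TGAGNNNGC, on both strands; they differ at the fourth base, so a position cannot match both on 1 strand. Windows existed for 7 of the 10 genes (Nfe2l2, Nqo1, Gclm, Gpx2, Srxn1, Txnrd1 and Slc7a11). A gene can have several windows; the 7 genes had 9, with 3 for Txnrd1. At least 1 match was found in 5 of the 9 windows, 1 window each for Nfe2l2, Srxn1, Gclm, Txnrd1 and Slc7a11. Of all 32851 windows of this length 27.79% held a match (12.39% for TGACNNNGC and 17.65% for TGAGNNNGC). Below are matches upstream of 2 genes that rose after BDL, Nfe2l2 and Srxn1, and of 2 that did not pass the test, Gclm and Txnrd1. The capitals mark the core, on the strand of the gene.
Nfe2l2, chr2:75704865-75704913, minus strand: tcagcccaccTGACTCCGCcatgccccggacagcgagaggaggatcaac
Srxn1, chr2:152105449-152105517, plus strand: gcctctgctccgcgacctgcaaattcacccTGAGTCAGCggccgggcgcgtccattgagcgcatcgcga
Gclm, chr3:122245393-122245461, plus strand: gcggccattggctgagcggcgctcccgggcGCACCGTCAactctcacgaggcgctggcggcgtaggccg
Txnrd1, chr10:82859084-82859152, plus strand: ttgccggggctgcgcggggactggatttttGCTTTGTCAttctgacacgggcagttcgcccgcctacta
The cores began 240, 45, 134 and 92 bases before the start site of Nfe2l2, Srxn1, Gclm and Txnrd1. In Gclm and Txnrd1 the core reads from the opposite strand, and Srxn1 had a second upstream match, GCCGACTCA, beginning 158 bases before its start. The Srxn1 window held 3 matches, and the remaining match, of TGACNNNGC, lay after the start site. The windows of Nqo1 and Gpx2, both of which rose in at least 1 genotype, held neither string. These are letter matches in short windows, not measured sites.

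The first comparison asked what BDL did to these genes in each genotype. Of the 9 genes that could be tested, Gpx2, Hmox1 and Srxn1 rose in both genotypes, Nfe2l2 and Nqo1 rose in FSAP-/- mice, and Gclc fell in WT mice. In WT liver 3 of the 9 (33.3%) rose and 1 (11.1%) fell, where 15.2% of the 19531 genes tested rose and 17.7% fell. In FSAP-/- liver 5 of the 9 (55.6%) rose and none fell, where 16.2% of all genes rose and 22.8% fell. At an unadjusted limma p under 0.05, 5 of the 9 differed in WT and 6 in FSAP-/- mice, Gclc alone with a lower value in each. Of all 19531 genes 8463 differed at that threshold in WT and 9346 in FSAP-/- mice. Calls are those of limma at an adjusted p under 0.05. In RNA of whole liver, more or fewer cells of a type and more or less RNA per cell cannot be told apart. The median log2 change of the 9 was 0.56 in WT and 0.97 in FSAP-/- mice, against -0.034 and -0.16 for all genes tested. Scaling by the array median moves those all-gene medians to -0.19 and -0.36 and the share of called genes that rose from 46.2% to 33.4% in WT and from 41.5% to 28.7% in FSAP-/- mice. With that scaling 3 of the 9 rose and 1 fell in WT, and 4 rose and 2, Gclc and Gclm, fell in FSAP-/- mice. Of all 19531 genes 2254 then rose and 4496 fell in WT, and 2613 rose and 6488 fell in FSAP-/- mice. With quantile normalization 5 rose in WT, now with Nfe2l2 and Txnrd1, and 7 in FSAP-/- mice, now with Gsr and Txnrd1, and none fell. All genes then gave 3129 rises and 3283 falls in WT, and 3425 rises and 4236 falls in FSAP-/- mice. The tenth gene, Slc7a11, the cystine transporter that feeds glutathione synthesis, was not well above background on any of the 12 arrays, and no fold change is given for it.

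**Figure D1:**
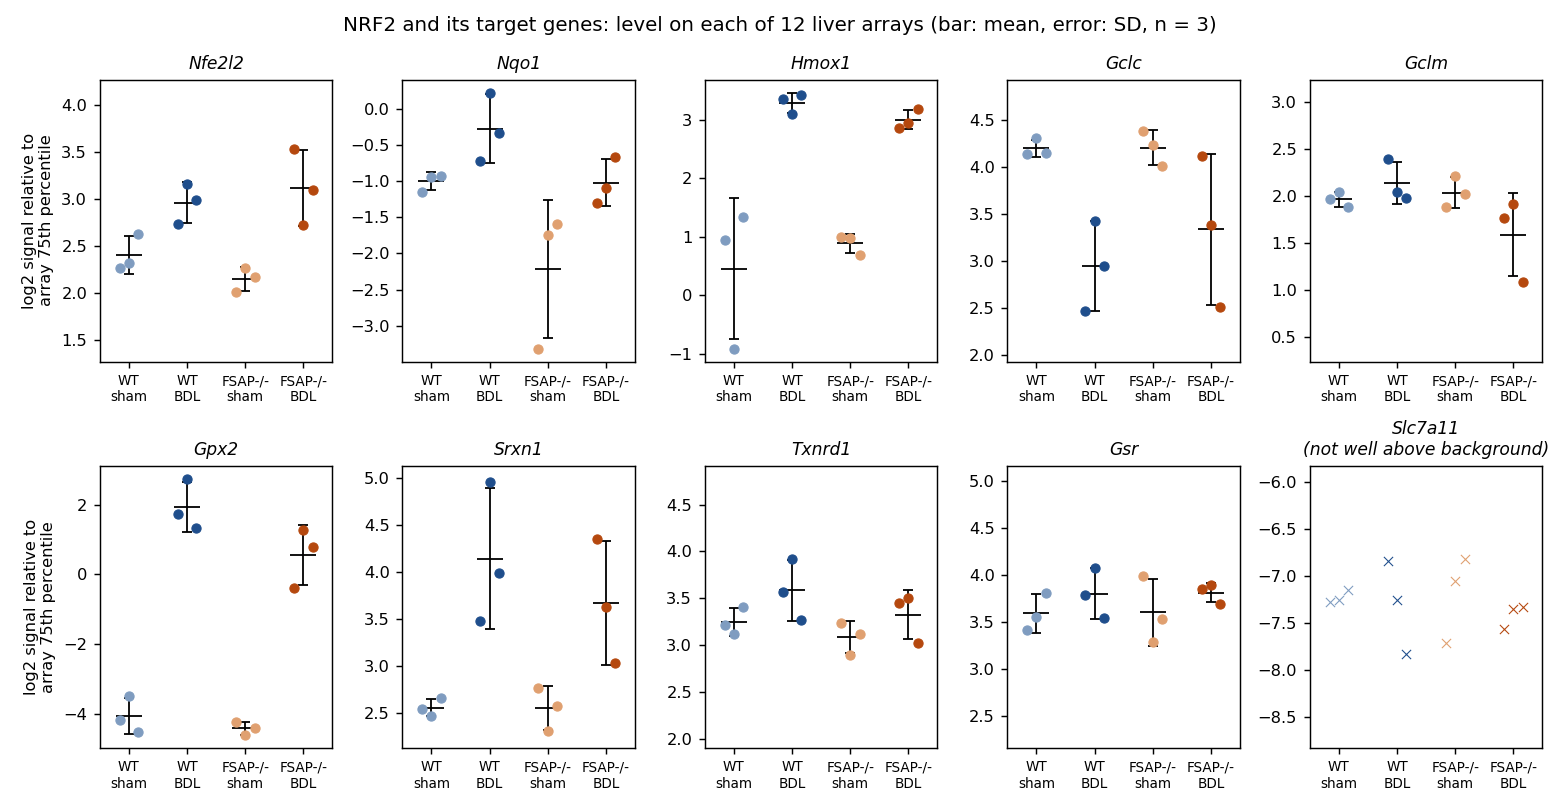
Level of each of the 10 genes on each of the 12 arrays, as log2 signal relative to the array's 75th percentile; each point is 1 mouse, the bar is the mean and the error bar the SD of 3 mice, and the panels have different vertical ranges. Gpx2 and Hmox1 separate BDL from sham in both genotypes, Gclc lies lower in all 3 WT BDL mice, and the crosses of Slc7a11 are signals not well above background.

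Nfe2l2 showed a modest difference. It was at 2.26, 2.32 and 2.63 in sham WT mice and at 2.73, 3.16 and 2.99 after BDL, and at 2.01, 2.27 and 2.17 in sham FSAP-/- mice and at 3.54, 2.72 and 3.10 after BDL. In each genotype all 3 BDL mice lay above all 3 sham mice. The log2 change was 0.56 ± 0.21 (SE) in WT mice, with a limma adjusted p of 0.0660. That value passed with quantile normalization (0.73, limma adjusted p = 0.0305) and with the authors' deposited values (0.72, 0.03005), which give nearly the same changes. It also passed with only the 2 WT groups in the fit (0.0456). The change was 0.97 ± 0.21 in FSAP-/- mice, a 1.96-fold rise with a limma adjusted p of 4.48e-03. Within the slide that held both surgeries the difference was 0.33 in WT and 0.95 in FSAP-/- mice. With the slide as a block in the fit, which rests on those same shared slides, the limma adjusted p for FSAP-/- mice was 0.0682, so the call was lost. Leaving out any 1 of the 6 FSAP-/- arrays kept that call.

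Nqo1 encodes a quinone reductase that is widely used as a readout of NRF2 activity. Sham WT mice were at -1.14, -0.94 and -0.93 and BDL WT mice at -0.72, 0.23 and -0.33. Sham FSAP-/- mice were at -3.32, -1.74 and -1.59 and BDL FSAP-/- mice at -1.31, -1.09 and -0.67. BDL lay above sham without overlap in both genotypes, and sham FSAP-/- mice had the lowest levels of the 4 groups, with replicate 1 far below the other two. Sham WT (mean -1.002) and BDL FSAP-/- (mean -1.02) were next and overlapped, and BDL WT (mean -0.27) was highest. The log2 change after BDL was 0.73 ± 0.41 (SE) in WT mice (limma adjusted p = 0.203) and 1.20 ± 0.41 in FSAP-/- mice (2.29-fold, limma adjusted p = 0.0394). Without sham FSAP-/- replicate 1 the latter was 0.65 with a limma adjusted p of 0.0922, and leaving out any 1 of the 3 BDL FSAP-/- arrays also ended the call. The call was lost as well with no filter on dim probes (limma adjusted p = 0.0663) and with only the 2 FSAP-/- groups in the fit (0.0994). Within the shared slide the FSAP-/- log2 change was 0.57, and with the slide as a block the limma adjusted p was 0.222.

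Hmox1, the inducible enzyme that opens the haem ring, rose in both genotypes. Sham WT mice were at 0.95, -0.91 and 1.34 and BDL WT mice at 3.36, 3.10 and 3.43. Sham FSAP-/- mice were at 1.00, 0.97 and 0.70 and BDL FSAP-/- mice at 2.87, 2.96 and 3.19. The BDL mice formed a tight band well above every sham mouse, and 1 sham WT mouse, replicate 2, stood below the rest. The rise was 2.84 ± 0.45 (SE, 7.16-fold, limma adjusted p = 9.01e-04) in WT and 2.11 ± 0.45 (4.33-fold, limma adjusted p = 4.00e-03) in FSAP-/- mice. Without sham WT replicate 2 the WT rise was 2.15, which is smaller by more than 1.5 times on the linear scale. A second, dimmer Hmox1 probe gave 1.51 and 0.98, both passing the test, and on it sham WT replicate 2, at -1.80, was close to the other two at -1.63 and -1.59. Within the shared slides the difference was 2.91 in WT and 2.31 in FSAP-/- mice; with the slide as a block the limma adjusted p was 0.0351 and 0.0620, the second no longer passing.

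Neither subunit of the enzyme that starts glutathione synthesis was called higher. Gclc, the catalytic subunit of glutamate-cysteine ligase, the rate-limiting enzyme of glutathione synthesis, was at 4.14, 4.31 and 4.16 in sham WT mice and at 2.47, 3.43 and 2.95 after BDL. All 3 BDL WT mice lay below all sham mice, and Gclc fell by 1.25 ± 0.35 on the log2 scale (2.38-fold lower, limma adjusted p = 0.0200). FSAP-/- mice were at 4.38, 4.23 and 4.01 after sham surgery and at 4.12, 3.39 and 2.52 after BDL, so that BDL replicate 1 lay within the sham range. The FSAP-/- log2 change was -0.87 ± 0.35, with a limma adjusted p of 0.0748. The WT call was near the threshold: the adjusted p was 0.0614 without sham WT replicate 2, 0.0678 without BDL WT replicate 1, 0.0519 after quantile normalization and 0.0596 with the slide as a block, where the log2 change was -1.73, as it was within the shared slide. In FSAP-/- mice the difference within the shared slide was -0.67. Without BDL FSAP-/- replicate 1 the FSAP-/- value was -1.26 and passed the test (limma adjusted p = 0.0112).

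Gclm, the modifier subunit that makes this ligase more efficient, ranged from 1.89 to 2.05 in sham WT, 1.98 to 2.39 in BDL WT, 1.88 to 2.21 in sham FSAP-/- and 1.08 to 1.92 in BDL FSAP-/- mice. Its log2 change was 0.17 (95% interval -0.30 to 0.65) in WT and -0.45 (-0.92 to 0.027) in FSAP-/- mice, and the groups overlapped in both. With median scaling the FSAP-/- value was -0.65 and passed the test (limma adjusted p = 0.0306). The 2 subunits of 1 enzyme thus had different values: Gclc fell in WT mice while Gclm gave no call there.

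Gpx2, a glutathione peroxidase best known from gut epithelium that reduces hydroperoxides, had the largest change of the 9 genes in both genotypes. It was at -4.17, -3.49 and -4.51 in sham WT mice and at 1.72, 2.74 and 1.34 after BDL. It was at -4.22, -4.59 and -4.40 in sham FSAP-/- mice and at -0.39, 1.28 and 0.79 after BDL. No BDL mouse came near the sham levels in either genotype. Gpx2 rose by 5.99 ± 0.45 on the log2 scale in WT mice, a 63.5-fold rise with a 95% interval of 31.7- to 127-fold, and by 4.96 ± 0.45 in FSAP-/- mice, a 31.1-fold rise with an interval of 15.5- to 62.5-fold. The limma adjusted p was 1.32e-05 and 3.39e-05, and only 0.276% and 0.410% of all genes tested had a larger absolute change. The difference within the shared slides was 5.78 and 4.96, and the call held with the slide as a block (limma adjusted p = 3.80e-03 and 5.05e-03), without any 1 array and without the 3 arrays with Y-linked signal. The size depended on the background correction: with normexp the rise was 4.65 in WT and 3.41 in FSAP-/- mice, called in both. Both lie below the 95% intervals above, which begin at 4.99 in WT and 3.96 in FSAP-/- mice on the log2 scale. As folds they are smaller by over 1.5 times, and the intervals do not cover this choice. On the sham arrays the lowest signal well above background lay between -5.44 and -4.60, not far below sham Gpx2. Its part in the size of the rise was not tested.

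Gsr, glutathione reductase, which regenerates reduced glutathione from NADPH, ranged from 3.41 to 3.81 in sham WT, 3.54 to 4.08 in BDL WT, 3.28 to 3.99 in sham FSAP-/- and 3.69 to 3.89 in BDL FSAP-/- mice. Sham and BDL overlapped in both genotypes. The log2 change was 0.21 (95% interval -0.24 to 0.67) in WT and 0.21 (-0.25 to 0.66) in FSAP-/- mice. After quantile normalization the FSAP-/- value was 0.59 and passed the test (limma adjusted p = 0.0238).

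Srxn1, sulfiredoxin, repairs peroxiredoxins that have been over-oxidised. It was at 2.54, 2.47 and 2.65 in sham WT mice and at 3.48, 4.95 and 3.99 after BDL, and at 2.77, 2.30 and 2.57 in sham FSAP-/- mice and at 4.35, 3.62 and 3.03 after BDL. The groups did not overlap in either genotype, and the BDL mice were widely spread. The rise was 1.58 ± 0.38 (SE, 3.00-fold, limma adjusted p = 8.73e-03) in WT and 1.12 ± 0.38 (2.18-fold, limma adjusted p = 0.0371) in FSAP-/- mice. Leaving out any 1 of 5 of the 6 FSAP-/- arrays ended the FSAP-/- call, BDL replicate 3 being the exception. That call was also lost with median scaling (0.92, limma adjusted p = 0.0722) and with no filter on dim probes (0.0634). In WT mice the call held without any 1 array, at a lowest log2 change of 1.18 without BDL replicate 2. Within the shared slides the difference was 0.92 in WT and 1.095 in FSAP-/- mice, and with the slide as a block neither passed (limma adjusted p = 0.263 and 0.164).

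Txnrd1, the cytosolic thioredoxin reductase, ranged from 3.13 to 3.41 in sham WT, 3.27 to 3.92 in BDL WT, 2.90 to 3.24 in sham FSAP-/- and 3.03 to 3.51 in BDL FSAP-/- mice, again with overlap. The log2 change was 0.34 (95% interval -0.10 to 0.77) in WT and 0.24 (-0.20 to 0.68) in FSAP-/- mice. After quantile normalization these were 0.55 and 0.57 and both passed the test (limma adjusted p = 0.0364 and 0.0265).

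Across the 9 genes, BDL and sham did not overlap in 6 (66.7%) in WT and 5 (55.6%) in FSAP-/- mice, where 52.1% and 47.5% of all genes did not overlap. The mice of a group also differed among themselves. Of the 3 BDL WT mice, replicate 2 had the highest level of 7 of the 9 genes, all but Hmox1 and Gclm, where it was highest for 28.5% of all genes. Of the 3 BDL FSAP-/- mice, replicate 3 had the lowest level of 5 of the 9, Gclc, Gclm, Srxn1, Txnrd1 and Gsr, where it was lowest for 38.8% of all genes. These 2 counts were singled out after the values were seen. Leaving out the 3 arrays with Y-linked signal left 1 BDL FSAP-/- mouse, assumed to vary like the others: Gpx2 and Nfe2l2 rose, Gclc fell by 1.605 and Gclm by 1.03, and Hmox1 (2.35, limma adjusted p = 0.0545), Nqo1 (1.00) and Srxn1 (0.60) did not pass.

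**Figure D2:**
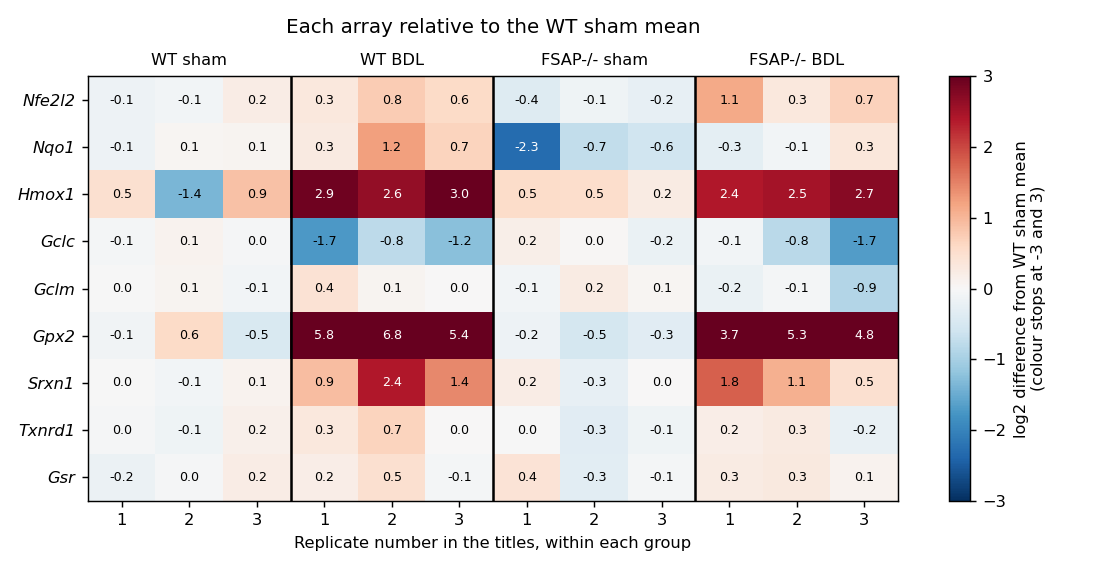
Difference of each array from the mean of the 3 sham WT arrays, in log2 units, for the 9 genes tested; columns are single mice by the replicate number in their titles, and the colour scale stops at -3 and 3. The Gpx2 and Hmox1 cells are high on all 6 BDL arrays, while the Gclc cells of BDL mice run from -0.1 to -1.7.

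Markers of other liver cell types moved with BDL as well. The mean level over 6 cholangiocyte markers ran from -3.64 to -3.14 on the 6 sham arrays and from -1.05 to -0.10 on the 6 BDL arrays; 5 of the 6 rose in each genotype and Cftr fell. The defining marker Epcam was not well above background on any sham array and was at least 5.72-fold higher after BDL in WT and at least 7.42-fold in FSAP-/- mice. Those bounds set the BDL mean against the higher of the lowest well-measured signal and the sham signal on each array. The mean over 8 macrophage markers ran from 0.30 to 1.39 in sham and from 2.13 to 2.74 in BDL mice, with 6 of 8 rising in WT and 8 of 8 in FSAP-/- mice. Of 5 neutrophil markers 3 rose in each genotype, of 6 stellate cell and myofibroblast markers 2 rose in WT and 5 in FSAP-/- mice, and neither of 2 erythroid markers passed (1 was higher in WT mice at an unadjusted p under 0.05), though Hba-a1 rose by 1.37 in WT and 1.41 in FSAP-/- mice with quantile normalization. Of 8 hepatocyte markers 2 fell in WT and 5 in FSAP-/- mice, with 3 and 8 falls under median scaling and 2 and 3 under quantile normalization, where 1 also rose in WT. Beside these marker counts, 15.2% of all genes rose and 17.7% fell in WT, and 16.2% rose and 22.8% fell in FSAP-/- mice. At an unadjusted limma p under 0.05, 8463 of the 19531 genes differed in either direction in WT mice. Under median scaling 4496 and 6488 of all 19531 genes fell, and under quantile normalization 3283 and 4236. Within the shared slides the median differences were 3.31 in WT and 3.78 in FSAP-/- mice for the cholangiocyte and 0.75 and 1.69 for the macrophage markers. The part of these shifts in the rises of Gpx2, Hmox1, Srxn1, Nfe2l2 and Nqo1, and in the fall of Gclc, was not tested.

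The second question was whether FSAP changed these levels. None of the 9 genes passed after sham surgery, where 3 of all genes did (0.0154%), and none passed after BDL, where 42 did (0.215%). At an unadjusted limma p under 0.05 there was 1 of the 9 after sham surgery and 2 after BDL. Of all 19531 genes 1538 passed that threshold after sham surgery and 2522 after BDL. The gene after sham surgery was Nqo1, lower in FSAP-/- mice by a log2 difference of -1.22 (95% interval -2.12 to -0.31). Its limma p was 0.0132 before and 0.431 after adjustment. Its 3 FSAP-/- mice lay below the 3 WT mice, and it was the only one of the 9 (11.1%) without overlap, where 17.1% of all genes had none. Without replicate 1 of the FSAP-/- sham mice the difference was -0.67, and with the slide as a block it was -1.41 (limma adjusted p = 0.460).

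After BDL the 2 genes were Gpx2, with a log2 difference of -1.37 (95% interval -2.38 to -0.37) and a limma p of 0.0119 before and 0.235 after adjustment, and Gclm, with -0.55 (-1.02 to -0.074), 0.0274 and 0.315. With the slide as a block these were -1.67 (limma adjusted p = 0.877) and -0.23 (0.971). Both lay lower in all 3 FSAP-/- mice, and these 2 of 9 (22.2%) were the genes without overlap, where 15.7% of all genes had none. Nqo1 was at -0.75 (-1.65 to 0.16) there, and the other 6 genes had differences between -0.47 and 0.39. The median difference of the 9 was -0.0060 after sham surgery and -0.29 after BDL, against 0.036 and -0.028 for all genes.

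The test of whether BDL acted differently in the 2 genotypes called none of the 9, and 2 of all genes (0.0102%). At an unadjusted limma p under 0.05 none of the 9 passed either, where 2678 of all 19531 genes did. So the call of Nqo1 and, on the scale used here, of Nfe2l2 in FSAP-/- mice alone, and of Gclc in WT mice alone, does not show that the genotypes differ. For Nfe2l2 the BDL change was 0.41 larger in FSAP-/- mice with a 95% interval of -0.24 to 1.07, for Nqo1 0.47 larger (-0.81 to 1.75), and for Gclc 0.38 less negative (-0.72 to 1.49). For Gpx2 the difference was -1.03 (-2.45 to 0.39) and for Hmox1 -0.73 (-2.13 to 0.68). These intervals are wide, and they leave room for differences in either direction.

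**Figure D3:**
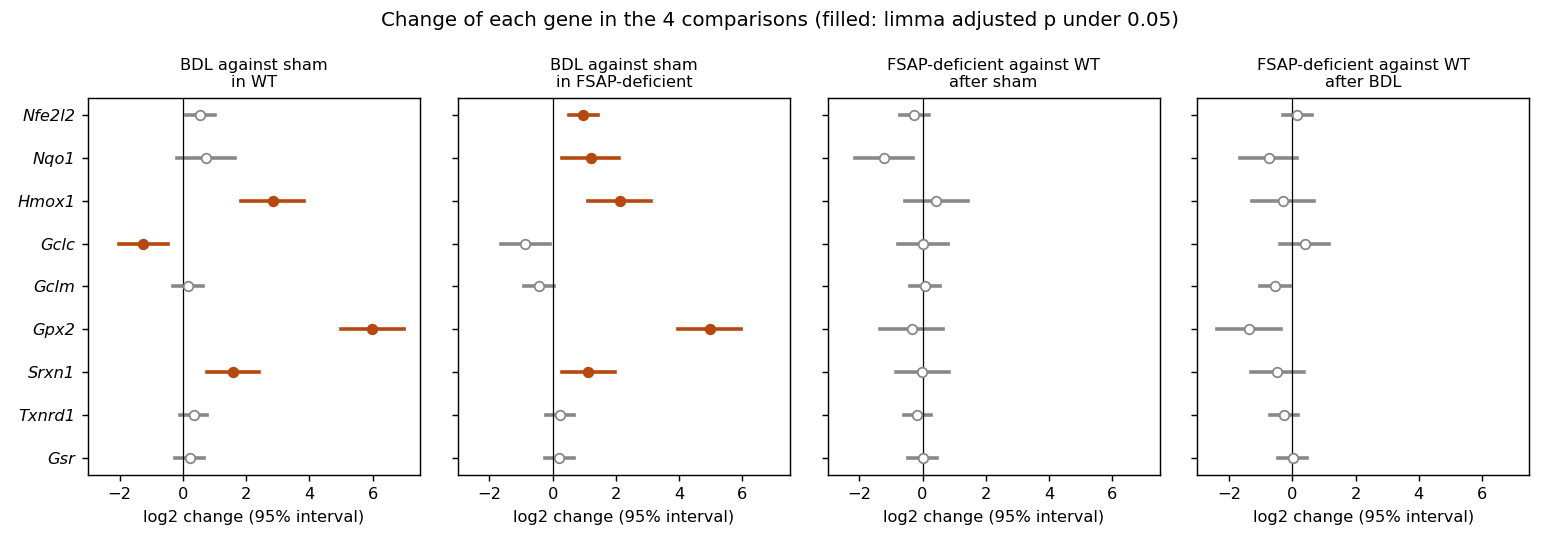
Log2 change of the 9 genes in the 4 comparisons, with 95% intervals from limma on all 12 arrays; filled points have an adjusted p under 0.05. Gpx2 stands far to the right in both BDL comparisons, and no point is filled in the 2 comparisons of genotype.

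Nqo1 was also used to ask which genes shared its course over the 12 arrays. Of 19522 other genes the closest by Pearson's r were Sybu (0.95), Cd36 (0.94) and Gm7300 (0.93). Sybu encodes syntabulin, an adaptor for kinesin cargo, and Cd36 a fatty acid and scavenger receptor. The r is a description of 12 arrays that fall into 4 groups, chosen as the highest of many. The lowest Nqo1 value among them was that of sham FSAP-/- replicate 1.

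Of 10 regulators and partners of NRF2, 1 rose and 1 fell in WT and 1 rose and 2 fell in FSAP-/- mice after BDL, with median changes of -0.22 and -0.32, beside the shares of all genes given above. With median scaling 1 rose and 2 fell in WT and none rose and 5 fell in FSAP-/- mice. Of the 19531 genes tested 2254 rose and 4496 fell in WT with that scaling, and 2613 rose and 6488 fell in FSAP-/- mice. The median change of all genes was then -0.19 in WT and -0.36 in FSAP-/- mice. In FSAP-/- mice Cul3, the ubiquitin ligase subunit that KEAP1 recruits, was at -0.54 (limma adjusted p = 0.0203) and Sesn2 at -0.60 (0.0248) with median scaling. Cul3 passed with quantile normalization too (-0.39, 0.0375), and was at -0.34 (0.0694) on the scale used here; both genes were named after their values were seen. KEAP1's gene had log2 changes of -0.27 (limma adjusted p = 0.196) and -0.28 (0.166); with median scaling both were lower, at -0.43 and -0.48, and passed. Bach1 was at -0.48 (limma adjusted p = 0.115) and -0.30 (0.312). Bach2, a relative of Bach1 known mainly from lymphocytes, fell by 2.53 and 1.101. Sqstm1, the autophagy receptor p62 that can draw KEAP1 away, rose by 0.86 in WT mice and was at 0.023 in FSAP-/- mice. Of the small MAF partners, Maff rose by 1.22 and Mafg fell by 0.72 in FSAP-/- mice; the Maff call was lost with median scaling and the Mafg call with quantile normalization.

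A further 21 NRF2 targets of detoxification and export were tested. After BDL 2 rose and 2 fell in WT and 6 rose and 2 fell in FSAP-/- mice, with medians of 0.45 and 0.36. Of all genes 15.2% rose and 17.7% fell in WT, and 16.2% rose and 22.8% fell in FSAP-/- mice. The rising genes of the list numbered 6 and 10 with quantile normalization and 2 and 4 with median scaling. Among all 19531 genes 3129 and 3425 rose with quantile normalization, and 2254 and 2613 with median scaling. Cbr3, a carbonyl reductase, rose by 2.13 and 2.53. Gsta1 (1.36 and 3.85), Abcc4 (-0.25 and 1.65), Akr1b8 (1.07 and 1.55) and Gstm2 (0.79 and 1.17) passed only the test in FSAP-/- mice (Gstm2 that in WT as well with quantile normalization and neither with median scaling), and the difference between genotypes was not called for any gene of the list. Gsta3 fell by 1.51 in WT and fell by 1.503 in FSAP-/- mice. Glutathione transferases have close paralogs whose transcripts could share a probe, so single members are uncertain.

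Glutathione use and turnover split by enzyme. Of 11 genes tested 5 rose and 1 fell in WT and 5 rose and 2 fell in FSAP-/- mice, with medians of 0.81 and 0.27. Of all genes 15.2% rose and 17.7% fell in WT, and 16.2% rose and 22.8% fell in FSAP-/- mice. Gpx3, the secreted glutathione peroxidase, rose by 4.07 and 3.85, Gpx7 by 1.76 and 2.36, Gpx8 by 1.33 and 2.05, and Gss, which completes glutathione synthesis, by 0.94 and 0.80. Gpx4 rose by 0.81 and 0.87. Gpx1, the abundant cytosolic peroxidase, fell by 0.63 and 0.76, a call lost in both genotypes with quantile normalization. Gpx2 was thus not alone among glutathione peroxidases in rising.

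Of 11 thioredoxin and peroxiredoxin genes none rose and 6 fell in each genotype, where 17.7% and 22.8% of all genes fell. The list medians were -0.84 and -0.79. At an unadjusted limma p under 0.05 none was higher and 7 were lower in each genotype. At that threshold 8463 of all 19531 genes differed in either direction in WT and 9346 in FSAP-/- mice. Median scaling gave 7 and 8 falls, where 4496 and 6488 of all 19531 genes fell. Quantile normalization gave 6 falls in WT and 5 falls and 1 rise, of Prdx2 (0.58), in FSAP-/- mice, where 3283 and 4236 of all genes fell. The mitochondrial reductase Txnrd2 fell by 1.44 and 1.31, Txnrd3 by 1.47 and 1.61, Prdx6 by 0.92 and 1.06, Txn2 by 0.84 and 0.97, Prdx4 by 0.68 and 0.88, and Prdx3 by 0.96 and 0.79. Txnrd1, the member of this family among the 9 genes, had small positive values instead.

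Of 6 genes of NADPH supply, on which NQO1 and both reductases draw, the pentose phosphate enzymes G6pdx (0.70 and 1.64) and Pgd (0.79 and 1.03) rose in both genotypes (Pgd in WT not with median scaling), and the cytosolic enzymes Me1 (-1.83 and -1.25) and Idh1 (-1.11 and -0.84) fell. Of 8 genes of haem and iron handling 3 rose in WT and 1 in FSAP-/- mice beside Hmox1: Hp by 1.36 and Hpx by 1.24, the plasma scavengers of haemoglobin and haem, in WT mice, and Slc48a1, a haem transporter, by 0.84 and 0.56. Quantile normalization gave 4 rises in each genotype, and Hp (0.83) and Hpx (1.20) then passed in FSAP-/- mice too. Median scaling gave 3 rises and 1 fall in WT and neither in FSAP-/- mice. The counts of all genes under these 2 scalings are given with the first comparison. Of 6 other antioxidant enzymes, Cat (-2.13 and -1.80) and Sod1 (-1.06 and -1.14) fell in both genotypes, and Sod2 fell by 0.71 in FSAP-/- mice, a call lost with quantile normalization. Of 8 genes of the ATF4 stress pathway, which can also drive Slc7a11, Asns (4.70 and 3.15), Atf3 (3.42 and 4.01), Psat1 (2.64 and 2.80) and Phgdh (1.42 and 2.10) rose in both genotypes. Beside the lists of this paragraph, 15.2% of all genes rose and 17.7% fell in WT, and 16.2% rose and 22.8% fell in FSAP-/- mice.

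No gene of these 8 lists was called by limma in either comparison of genotype or in the interaction. At an unadjusted p under 0.05, of 81 list genes 2 were higher and 6 lower in FSAP-/- mice after sham surgery, 4 and 4 after BDL, and 4 and 5 in the interaction. In the same comparisons 1538, 2522 and 2678 of all 19531 genes differed in either direction at that threshold. With the slide as a block 7.75% of all genes rose and 9.08% fell in WT and 10.2% and 11% in FSAP-/- mice. The list medians were then -0.17 in WT and -0.22 in FSAP-/- mice for the regulators, 0.25 and 0.70 for detoxification and export, 0.56 and 0.24 for glutathione use, -0.75 and -0.86 for the thioredoxin genes, -0.66 and -0.30 for NADPH supply, 0.59 and 0.049 for haem and iron, -0.32 and -0.47 for the other antioxidant enzymes, and 0.49 and 1.07 for the ATF4 pathway. Within the shared slides they were the same to 2 decimals, apart from 1.102 in WT mice for the ATF4 pathway. In that list Atf4 lacks a sham WT value, left out as an outlier spot. Its SE for BDL against sham was therefore 0.24 in WT and 0.21 in FSAP-/- mice. The part of this missing value in the gap was not tested. The match of the other medians follows from the slide layout and is not a second result. With the slide as a block, the BDL difference of a genotype comes only from its shared slide. For the 9 NRF2 genes the median was 0.33 and 0.57 both ways. The list of other antioxidant enzymes changed sign in WT mice, from 0.077 on all arrays.

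**Figure D4:**
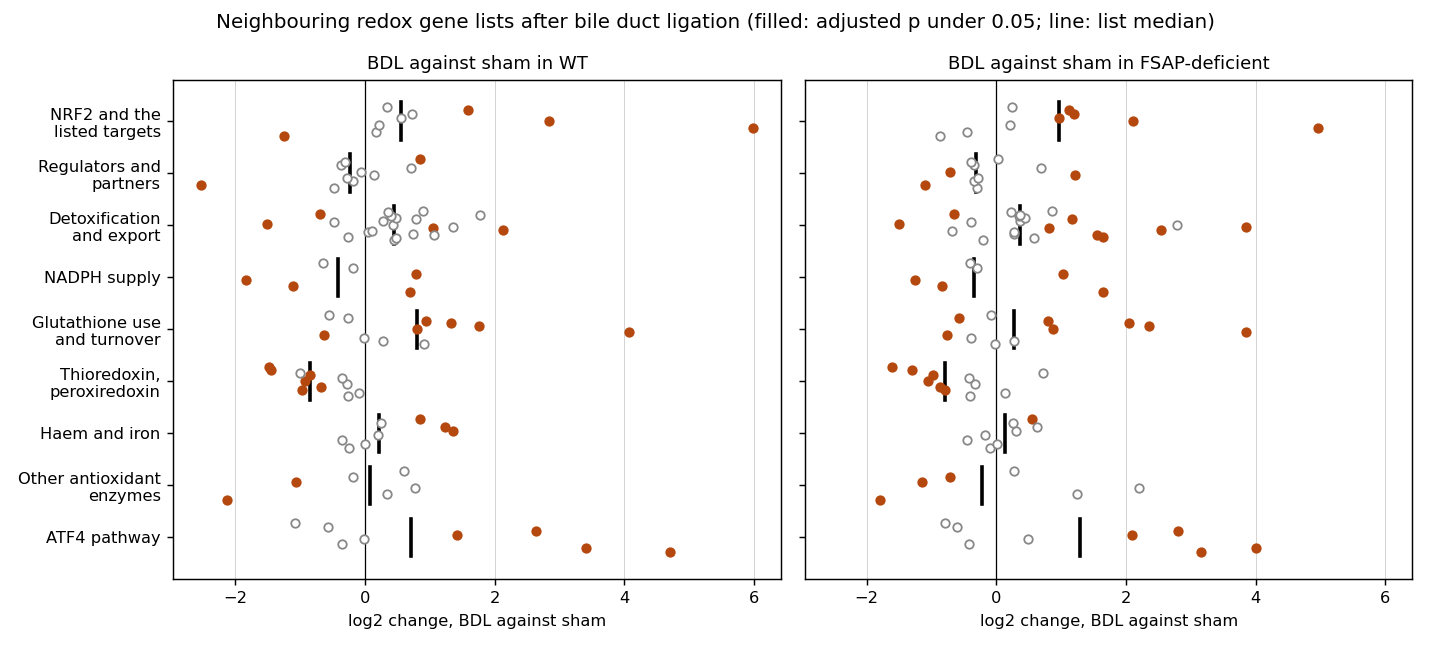
Log2 change after BDL in WT (left) and FSAP-/- mice (right) for the 9 NRF2 genes and the 8 lists; each point is 1 gene, filled where limma's adjusted p was under 0.05, and the vertical line is the list median. The NRF2 genes spread from -1.25 to 5.99 in WT mice, whereas no thioredoxin or peroxiredoxin gene was called higher in either genotype on this scale (1 was in FSAP-/- mice with quantile normalization).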

How the data were processed

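Signals were deposited by the authors as scanner files of 1 array each, in linear intensity units, from Agilent Feature Extraction version 10.5.1.1 (its protocol being GE1_105_Jan09), already background-subtracted and detrended, per the file headers. A deposited table of log2 values of the same arrays was used as an alternative; its scale and centring follow the scanner values, and its making is not described in the labels or headers used here. Of each total RNA (integrity at least 7.2) 100 ng was labelled, per the labels. The array with other gene names was joined by probe.

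Here log2 intensity was scaled by each array's 75th percentile over non-control spots, spots of a probe were averaged, outlier spots were left out, and the brightest probe stood for a gene. Genes needed signal well above background on at least 3 arrays of the 12 and were tested with limma 3.58.1 (R 4.3.3), 1 mean per group, Benjamini-Hochberg adjusted over 19531 genes; 95% intervals are limma's. The script was checked on simulated data. No count of molecules underlies an array, so precision rests on 3 mice per group.

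Genes and lists were chosen with earlier results of these data known, so no p is given for a list. Beyond the 10 genes, list genes were to be named only if called in at least 1 comparison, at most 6 per list by size of change, with Keap1 and Bach1 in any case. Cul3, Sesn2 and Prdx2 were named outside this rule, after their calls with another scaling were seen. Of 33063 probes with a RefSeq accession, 26412 accessions were matched to current symbols. Promoter sequences are RefSeq's, build GRCm38.p6. The alternatives were the background correction, the scaling, the deposited table, the filter, the probe per gene, the slide, the replicate number, the arrays in the fit and each array left out. One cell type marker is not reported here.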

Additional observations from a re-analysis of the deposited data

How the results depend on the processing

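The number of the 9 genes called after BDL, 4 in WT and 5 in FSAP-/- mice, stayed within 1.5 times under normexp background correction, median scaling, quantile normalization, the authors' deposited log2 values, a filter of 6 arrays, the mean of all probes, the slide as a random block and only the 2 groups compared. It was 3 in FSAP-/- mice with no filter on dim probes, where more genes are tested, and 2 in WT and 1 in FSAP-/- mice with the slide as a fixed block. Leaving out 1 array gave 3 to 4 in each genotype; the FSAP-/- count was 3 without sham replicate 1 or BDL replicate 2. Every comparison of genotype and the interaction called 0 of the 9 under all alternatives run. The replicate numbers did not pair the mice: over 6 pairs of groups, deviations of same-numbered arrays correlated between -0.20 and 0.19. A replicate block gave 4 and 4 called genes, losing Srxn1 in FSAP-/- mice (adjusted p = 0.0565). Signs turned only in comparisons of genotype and the interaction, where no gene was called, and the causes were not tested. For Gclc after sham surgery the value was -0.030 with normexp, -0.047 with median scaling, -0.011 with quantile normalization, -0.014 with the deposited values, -0.69 and -0.037 with the slide as a fixed and a random block, and -0.079 without the 3 arrays with Y-linked signal. For Gsr after sham surgery it was -0.044 (median), -0.0036 (quantile), -0.019 (deposited values), -0.021 (mean of probes), -0.32 (slide fixed), -0.18 (without those 3 arrays) and -0.054 (dimmer probe, chosen after seeing the data). For Gsr after BDL it was -0.096 (median), -0.14 (mean of probes), -0.25 and -0.0024 (slide fixed and random), -0.11 (without the 3 arrays) and -0.29 (dimmer probe). For Gclc without the 3 arrays it was -0.43 after BDL and -0.35 in the interaction. The interaction of Gsr was 0.0093 (normexp), 0.13 (quantile), 0.14 (deposited values), 0.077 (slide fixed) and 0.075 (without the 3 arrays), that of Txnrd1 0.023 (quantile) and 0.036 (deposited values), and that of Srxn1 0.17 (slide fixed). Hmox1 after BDL was 0.016 with the slide fixed. Leaving out 1 array, signs also turned after sham surgery for Gclc (-0.079 to 0.11), Gclm (-0.017 to 0.15), Gsr (-0.18 to 0.17), Hmox1 (-0.25 to 0.87) and Srxn1 (-0.12 to 0.12), after BDL for Gsr (-0.12 to 0.14) and Nfe2l2 (-0.052 to 0.35), and in the interaction for Gclc (-0.0048 to 0.80), Gsr (-0.16 to 0.19), Nqo1 (-0.079 to 0.78) and Txnrd1 (-0.25 to 0.071). With 3 mice per group, no slide holding both genotypes after the same surgery and unequal sex by Y-linked signal, the intervals of the genotype differences are wide.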
